A study of Mus musculus with 32 samples.

Results

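The core regulators of the retinoblastoma (Rb) pathway were followed through mouse models of high-grade serous ovarian cancer. The set comprised 10 of the 55450 genes in the deposited tables and was chosen by symbol: the inhibitors Cdkn2a, Cdkn2b and Cdkn2c, the pocket proteins Rb1, Rbl1 and Rbl2, the kinases Cdk4 and Cdk6, and the cyclins Ccnd1 and Ccnd2. Each of the 10 genes passed the filter on low counts in every fit.

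Rb1 and its relatives Rbl1 (p107) and Rbl2 (p130) hold cells in G1 by binding E2F transcription factors and silencing the genes needed for DNA replication. D-type cyclins activate Cdk4 and Cdk6, which phosphorylate the pocket proteins and release E2F, while INK4 proteins bind Cdk4 and Cdk6 and block this step. In high-grade serous ovarian cancer loss of Rb function and amplification of cell cycle genes are recurrent, and a high level of the INK4 protein p16 is a known mark of cells in which Rb is inactive.

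Total RNA of female mice was sequenced in 26 tumours and 6 normal organs. Every tumour model carried Brca1 fl/fl and the transgene K18GT121 Tg/+, in which the keratin 18 promoter drives T121, a fragment of the SV40 large T antigen that binds and inhibits all pocket proteins. The models differed in where recombination was started and in the Trp53 allele. Allografts and primary tumours of the genetically engineered mice (GEMM) were profiled for each model.

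Ovgp1-BPR tumours (3 allografts, 3 GEMM) were started with tamoxifen in C57Bl/6 mice with the Ovgp1-CreERT2 transgene, which is active in secretory cells of the oviduct. Their sample labels give Trp53 KozR172H ki/+, whereas the series text names the R172H mutation but lists Trp53 fl/fl, so the second allele is uncertain. Ad-BPR tumours (4 allografts, 2 GEMM) were started by adeno-Cre injected into the oviduct of C57Bl/6 mice with Trp53 fl/fl. Pax8-BPR tumours (2 allografts, 4 GEMM) were started with tamoxifen in C57Bl/6 mice with Trp53 fl/fl and Pax8-CreERT2 Tg/+, directed to the same secretory cells. OSE-BPR tumours (5 allografts, 3 GEMM) were started in the ovarian surface epithelium by adeno-Cre placed under the bursa of FVB mice with Trp53 fl/fl. Normal oviduct (3) and normal ovary (3) came from the same 3 wild-type C57Bl/6 mice and carried neither the floxed alleles nor the transgene. Tumours were taken at endpoint; ages and the source tumour of each allograft were not given. The 3 models of oviduct origin are called oviduct-origin tumours below, and OSE-BPR tumours differed from every other group in strain as well as in site.

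In GENCODE M21 (GRCm38) the set lies on 8 chromosomes. Cdkn2a (chr4:89274471-89294653) and Cdkn2b (chr4:89306299-89311039) are adjacent, and Cdkn2c (chr4:109660876-109667189) lies farther along the same chromosome. The others are Rb1 (chr14:73183673-73325822), Rbl1 (chr2:157145893-157204534), Rbl2 (chr8:91070057-91123844), Cdk4 (chr10:127063534-127067920), Cdk6 (chr5:3341485-3531008), Ccnd1 (chr7:144929931-144939925) and Ccnd2 (chr6:127125162-127152193). Values are per whole gene, exons of all isoforms together.

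The start regions of Cdkn2a, Cdkn2c and Rbl1, the genes that rose above the normal organ in every model, are shown for the E2F-type motifs TTTCCCGC, TTTCGCGC, TTTGCCGC and TTTGGCGC, searched on both strands in the 250 bases before each gene start (RefSeq, GRCm38.p6). Cdkn2a has separate promoters for p19Arf and p16Ink4a. For Cdkn2c only the upstream start region is shown, and its downstream start region (chr4:109665373-109665622) held no motif. Capitals mark a motif, sequences read 5′ to 3′ on the gene's strand, and all 3 genes lie on the minus strand.
Cdkn2a, p19Arf start, chr4:89294620-89294869: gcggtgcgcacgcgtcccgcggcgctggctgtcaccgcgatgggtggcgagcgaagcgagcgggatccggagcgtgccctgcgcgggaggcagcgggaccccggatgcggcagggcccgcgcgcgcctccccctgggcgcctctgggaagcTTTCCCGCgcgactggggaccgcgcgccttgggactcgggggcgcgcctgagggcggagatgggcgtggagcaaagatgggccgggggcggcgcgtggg
Cdkn2a, p16Ink4a start, chr4:89282193-89282442: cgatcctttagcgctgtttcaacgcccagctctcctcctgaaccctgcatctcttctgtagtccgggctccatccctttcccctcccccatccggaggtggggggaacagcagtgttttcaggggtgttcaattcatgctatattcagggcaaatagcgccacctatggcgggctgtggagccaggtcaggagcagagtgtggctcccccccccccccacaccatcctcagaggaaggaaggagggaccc
Cdkn2c, upstream start, chr4:109666757-109667006: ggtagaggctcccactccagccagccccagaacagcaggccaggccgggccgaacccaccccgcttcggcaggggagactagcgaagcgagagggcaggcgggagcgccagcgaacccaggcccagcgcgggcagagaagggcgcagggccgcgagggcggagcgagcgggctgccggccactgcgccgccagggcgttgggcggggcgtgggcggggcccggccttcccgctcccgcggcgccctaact
Rbl1, chr2:157204535-157204784: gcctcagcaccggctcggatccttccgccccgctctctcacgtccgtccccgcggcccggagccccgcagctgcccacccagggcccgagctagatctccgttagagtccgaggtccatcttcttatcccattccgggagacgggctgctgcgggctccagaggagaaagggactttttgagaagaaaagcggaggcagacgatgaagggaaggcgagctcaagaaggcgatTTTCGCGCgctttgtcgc
The p19Arf start held TTTCCCGC, with its first base 99 bases before the start, and the Rbl1 start held TTTCGCGC, 18 bases before it. Of the 9 start regions found for 7 of the 10 genes, these 2 held a motif, against 1.86% of 32851 start regions in the table. By motif, TTTCCCGC was in 0.895% of them, TTTCGCGC in 0.256%, TTTGCCGC in 0.338% and TTTGGCGC in 0.417%. No match means only that these letters are not in this window. Rb1, Ccnd1 and Ccnd2 are named without a sequence.

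Libraries held 13.99 to 20.51 M expected counts, with a median of 17.43 M. Trp53 stood at 101 to 157 CPM (normalised counts-per-million, scaled by trimmed means) in the Ovgp1-BPR tumours, at 8.40 to 43.0 CPM in the Ad-BPR, Pax8-BPR and OSE-BPR tumours, at 83.4 to 94.6 CPM in oviduct and at 112 to 120 CPM in ovary. The normal samples are whole organs: summed epithelial markers (Epcam, Krt8, Krt18, Krt7, Cdh1) reached 823 to 5540 transcripts-per-million (TPM) in oviduct-origin GEMM tumours and 1030 to 1210 TPM in oviduct, and 2050 to 2560 TPM in OSE-BPR GEMM tumours and 54.7 to 86.9 TPM in ovary. In such bulk samples fewer cells of a type and less RNA per cell cannot be told apart. Oviduct replicates 1 and 3 carried summed granulosa, theca and luteal markers of 1090 and 704 TPM, against 71.8 TPM in replicate 2. Below, log2 fold changes carry an SE, computed as the absolute log2 fold change divided by the square root of the quasi-likelihood F statistic. Calls are at an adjusted p under 0.05 in edgeR's quasi-likelihood test with Benjamini-Hochberg adjustment over all genes of the fit. Labels do not say that tumours of a group came from separate animals, so the p-values measure the spread between these samples.

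In every model Cdkn2a, Cdkn2c and Rbl1 rose above the normal organ, and in the oviduct-origin models Cdkn2b rose too, whereas Rbl2, Cdk4, Cdk6 and Ccnd1 did not pass the test in any. In Ovgp1-BPR GEMM tumours against oviduct 5 of the 10 genes were called higher and 1 lower, beside 15.3% of all genes higher and 17.3% lower. In Ad-BPR GEMM tumours 4 were higher and 0 lower (background 11.7% and 12.3%). In Pax8-BPR GEMM tumours 4 were higher and 0 lower (15.9% and 16.3%). Averaged over the oviduct-origin models with equal weight, 4 were higher and 1 lower (14.8% and 20.9%). In OSE-BPR GEMM tumours against ovary 3 were higher and 0 lower (11.6% and 11.6%). The median log2 fold change of the 10 genes was 0.63 in the averaged oviduct comparison and 0.24 in the ovary comparison, beside -0.04 and 0 over all genes. The comparisons with oviduct share its 3 libraries. Without oviduct replicates 1 and 3, an alternative chosen after earlier results were seen, 1 oviduct library was left. Then 3 of the 10 genes were called in Ovgp1-BPR, 1 in Ad-BPR, 2 in Pax8-BPR and 3 over the oviduct-origin models, Cdkn2a among them, and no called fold changed sign.

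**Figure D1:**
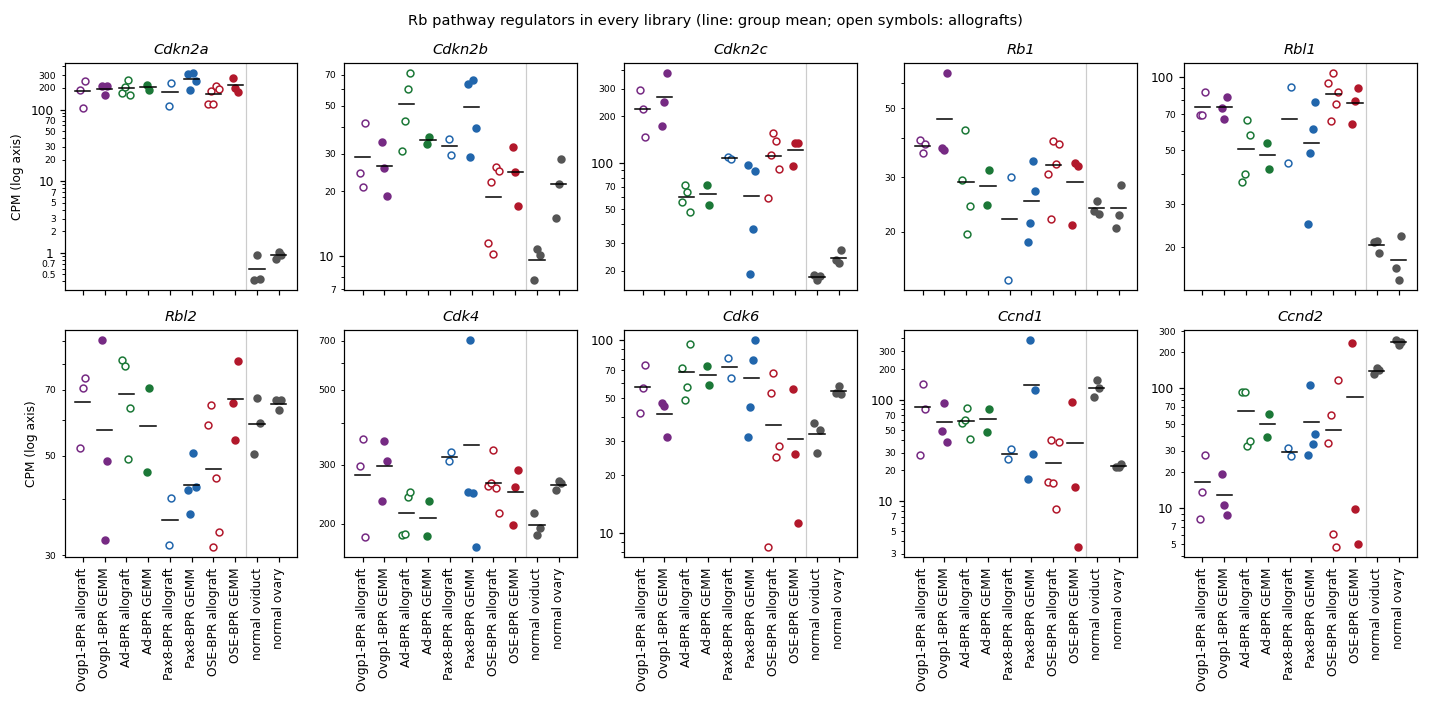
CPM (log axis) of the 10 genes in each of the 32 libraries, by model and organ; each point is a library, open for allografts and filled for the rest, and the line is the group mean. Cdkn2a separates the tumours, at 105 to 319 CPM, from the normal organs, at 0.42 to 1.03 CPM, while Ccnd1 and Ccnd2 range widely among tumours.

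Cdkn2a, which encodes the Cdk4 and Cdk6 inhibitor p16Ink4a and, from another reading frame, the p53 activator p19Arf, showed the largest difference. GEMM tumours had 216, 161 and 212 CPM in Ovgp1-BPR, 223 and 189.6 CPM in Ad-BPR, 317, 187, 319 and 252 CPM in Pax8-BPR, and 273, 199.8 and 177 CPM in OSE-BPR. Oviduct had 0.420, 0.936 and 0.433 CPM and ovary had 0.832, 1.03 and 0.931 CPM, which rest on 7 to 18 counts a library. No tumour came near a normal organ, and the tumour groups overlapped one another. The log2 fold change was 8.52 ± 0.45 in oviduct-origin GEMM tumours against oviduct (adjusted p = 4.6e-13) and 7.85 ± 0.44 in OSE-BPR GEMM tumours against ovary (230-fold, adjusted p = 2.3e-11). Among the oviduct-origin models it was 8.34 ± 0.46 in Ovgp1-BPR, 8.41 ± 0.47 in Ad-BPR and 8.79 ± 0.46 in Pax8-BPR. Allografts ranged from 105 to 258 CPM with a median of 184 CPM.

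The level of Cdkn2a placed it among the most abundant transcripts of the tumours. Its mean TPM stood at percentile 99.2 of 34426 genes in tumours and at percentile 48.1 of 29663 genes in normal organs. Of the TPM summed over the 4 INK4 genes (Cdkn2a, Cdkn2b, Cdkn2c and Cdkn2d), Cdkn2a took 41.6 to 85.2% in tumours, 2.48 ± 1.09% in oviduct and 2.85 ± 0.376% in ovary (SD, n = 3 each). That sum was 694 ± 182 TPM in tumours (SD, n = 26) and 61.7 ± 13.7 TPM in normal organs (SD, n = 6). Ovgp1-BPR groups had the lowest mean Cdkn2a share among tumour groups, at 53.2% in allografts and 54.5% in GEMM. Gene-level values cannot divide p16Ink4a from p19Arf.

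**Figure D2:**
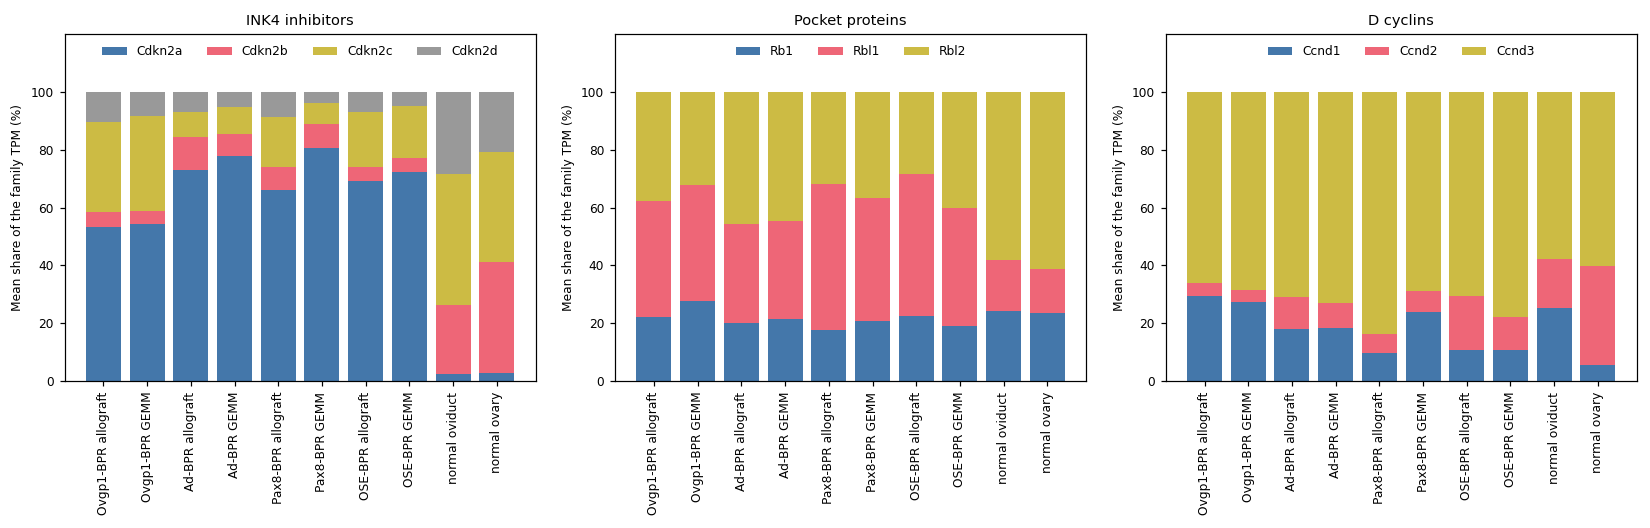
Mean share (%) of each gene in the summed TPM of its family, by group, for the INK4 inhibitors, the pocket proteins and the D-type cyclins. Cdkn2a fills most of the INK4 bar in every tumour group, against 2.48% in oviduct and 2.85% in ovary.

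Cdkn2b, the neighbour of Cdkn2a on chromosome 4, encodes p15Ink4b. It rose above the organ in oviduct-origin GEMM tumours and was not called in OSE-BPR. GEMM tumours had 34.0, 25.6 and 19.1 CPM in Ovgp1-BPR, 33.2 and 35.9 CPM in Ad-BPR and 63.4, 28.9, 66.2 and 39.7 CPM in Pax8-BPR, against 7.75, 10.8 and 10.2 CPM in oviduct. OSE-BPR GEMM tumours had 32.2, 24.7 and 17.1 CPM, against 15.0, 21.6 and 28.2 CPM in ovary. Every oviduct-origin GEMM tumour lay above the oviduct libraries, while the OSE-BPR and ovary ranges overlapped.

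The averaged oviduct-origin fold of Cdkn2b was 1.89 ± 0.36 on the log2 scale (3.72-fold, adjusted p = 0.00022), with 1.46 ± 0.39 in Ovgp1-BPR, 1.85 ± 0.43 in Ad-BPR and 2.37 ± 0.39 in Pax8-BPR. In OSE-BPR against ovary it was 0.19 ± 0.39 (adjusted p = 0.77). The difference of these tumour effects was 1.70 ± 0.51 (adjusted p = 0.027), and Cdkn2b was the only 1 of the 10 genes called higher there, with 0 lower, beside 5.78% of all genes higher and 8.03% lower. The call was lost in 7 of 18 leave-one-out fits, with adjusted p from 0.05 to 0.093: without OSE-BPR GEMM replicate 2 or 3, Ad-BPR GEMM replicate 2, ovary replicate 2 or 3, or oviduct replicate 1 or 3. The lowest value among these was 1.48. Normal oviduct itself had less Cdkn2b than normal ovary. Compared directly, oviduct-origin and OSE-BPR GEMM tumours differed by 0.52 ± 0.34 (adjusted p = 0.27), with overlap. Of 8 leukocyte markers 4 were higher in oviduct-origin GEMM tumours against oviduct and 0 in OSE-BPR GEMM tumours against ovary, with 0 lower in either. Of 6 fibroblast markers 2 were lower and 0 higher in each comparison. The part of these markers in the Cdkn2b result was not tested.

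Cdkn2c encodes p18Ink4c, another INK4 inhibitor, and rose in all models and was highest in Ovgp1-BPR tumours among those of oviduct origin. GEMM tumours had 171, 248 and 378 CPM in Ovgp1-BPR, 71.4 and 53.0 CPM in Ad-BPR and 97.2, 19.1, 37.2 and 88.8 CPM in Pax8-BPR, against 18.7, 17.5 and 18.5 CPM in oviduct. OSE-BPR GEMM tumours had 95.04, 135 and 133 CPM, against 23.4, 22.3 and 27.2 CPM in ovary. All GEMM tumours exceeded their organ, Pax8-BPR GEMM replicate 2 by the least.

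The log2 fold change of Cdkn2c was 3.87 ± 0.46 in Ovgp1-BPR (14.6-fold, adjusted p = 9.9e-07), 1.77 ± 0.45 in Ad-BPR (adjusted p = 0.007), 1.73 ± 0.41 in Pax8-BPR (adjusted p = 0.0022) and 2.32 ± 0.43 in OSE-BPR against ovary (4.98-fold, adjusted p = 0.00047). In Ad-BPR the call was lost without Ad-BPR GEMM replicate 1 (1.60, adjusted p = 0.051). In Pax8-BPR limma on TPM gave 0.91 (adjusted p = 0.067).

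Between oviduct-origin models the step in Cdkn2c was also tested directly. Ovgp1-BPR GEMM tumours averaged 266 ± 104 CPM (SD, n = 3), against 61.1 CPM as the mean of the Ad-BPR and Pax8-BPR GEMM tumours, a log2 difference of 2.11 ± 0.39 (4.33-fold, adjusted p = 0.0011) with no overlap. Ovgp1-BPR allografts had 296, 221 and 147 CPM, against 55.5, 71.7, 64.6 and 47.7 CPM in Ad-BPR and 109 and 106 CPM in Pax8-BPR allografts. The groups did not overlap (1.46 ± 0.39, adjusted p = 0.01), and without Ovgp1-BPR allograft replicate 1 the adjusted p was 0.08. Of the 10 genes 2 were higher and 0 lower in the GEMM comparison, beside 12.5% and 10.2% of all genes, and 1 was higher and 0 lower in the allograft comparison, beside 13.7% and 8.6%. Summed fibroblast markers moved with this comparison, at 711 to 1390 TPM in Ovgp1-BPR and 1620 to 7230 TPM in Ad-BPR and Pax8-BPR tumours. Of the 6 markers 1 was higher and 3 lower in GEMM and 1 was higher and 2 lower in allografts. Of 4 oviduct secretory markers 2 were higher in GEMM and 2 in allografts, with sums of 797 to 1040 TPM in Ovgp1-BPR and 186 to 1150 TPM in Ad-BPR and Pax8-BPR GEMM tumours. Of 8 leukocyte markers 2 were lower in GEMM and 0 in allografts, with sums of 51.3 to 203 TPM in Ovgp1-BPR and 171 to 634 TPM in Ad-BPR and Pax8-BPR GEMM tumours. None of these markers was at 0 throughout a group, and their part in the result was not tested.

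Among the pocket proteins Rbl1 rose in every model, Rb1 rose in Ovgp1-BPR GEMM tumours, and Rbl2 passed in none. Rbl1 encodes p107, itself a known E2F target gene. Oviduct-origin GEMM tumours had 74.3, 67.0 and 82.8 CPM of Rbl1 in Ovgp1-BPR, 53.5 and 41.9 CPM in Ad-BPR and 24.9, 48.9, 61.2 and 78.6 CPM in Pax8-BPR, against 21.0, 21.3 and 19.1 CPM in oviduct. OSE-BPR GEMM tumours had 64.1, 79.4 and 90.02 CPM, against 16.4, 14.7 and 22.3 CPM in ovary. No tumour overlapped its organ.

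The log2 fold change of Rbl1 was 1.87 ± 0.31 in Ovgp1-BPR (adjusted p = 9.8e-05), 1.22 ± 0.34 in Ad-BPR (adjusted p = 0.011), 1.39 ± 0.30 in Pax8-BPR (adjusted p = 0.001) and 2.12 ± 0.32 in OSE-BPR against ovary (4.36-fold, adjusted p = 5.2e-05). Without Ad-BPR GEMM replicate 1 the Ad-BPR value was 1.09 (adjusted p = 0.074). The difference by origin was -0.63 ± 0.39 (adjusted p = 0.31). Markers of dividing cells moved with these comparisons: they summed to 169 to 650 TPM in oviduct-origin GEMM tumours and 13.4 to 51.7 TPM in oviduct, with 5 of 5 called higher, and to 341 to 584 TPM in OSE-BPR GEMM tumours and 132 to 201 TPM in ovary, with 4 of 5. None was at 0, and their part in the result was not tested.

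Rb1, the retinoblastoma gene, had 37.2, 36.7 and 64.6 CPM in Ovgp1-BPR GEMM tumours, against 23.4, 25.1 and 22.9 CPM in oviduct. The groups did not overlap, and the log2 fold change was 0.96 ± 0.31 (adjusted p = 0.019). Without Ovgp1-BPR GEMM replicate 3, the highest of them, it was 0.63 (adjusted p = 0.15), and without oviduct replicate 3 it was 0.93 (adjusted p = 0.06). Against the mean of Ad-BPR and Pax8-BPR GEMM tumours (26.2 CPM) it was 0.79 ± 0.29 (adjusted p = 0.049), a call lost in 7 of 9 leave-one-out fits (all but those without Ovgp1-BPR GEMM replicate 1 or Pax8-BPR GEMM replicate 3), at 0.47 to 0.94. With RLE scaling it was 0.77 (adjusted p = 0.055), and in the allografts the difference was 0.58 ± 0.29 (adjusted p = 0.15), with overlap, against 0.75 (adjusted p = 0.049) by limma on TPM. Against the normal organ the Rb1 log2 fold change was 0.43 ± 0.26 over the oviduct-origin models (adjusted p = 0.2), 0.24 in Ad-BPR, 0.08 in Pax8-BPR and 0.28 in OSE-BPR, none of them called.

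Rbl2, which encodes p130, the pocket protein prominent in resting cells, ranged from 31.3 to 90.3 CPM in tumours with a median of 51.3 CPM. Oviduct had 50.3, 67.2 and 58.9 CPM and ovary had 66.4, 63.0 and 66.4 CPM, inside the tumour range. Its log2 folds against the organ lay between -0.45 and 0.04. Per length, Rbl1 made up a mean of 34.0 to 50.5% of the summed pocket protein TPM in tumour groups, 17.8 ± 1.73% in oviduct and 15.3 ± 2.00% in ovary (SD, n = 3 each). Rbl2 made up 28.5 to 45.8% in tumour groups, 57.9% in oviduct and 61.3% in ovary.

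**Figure D3:**
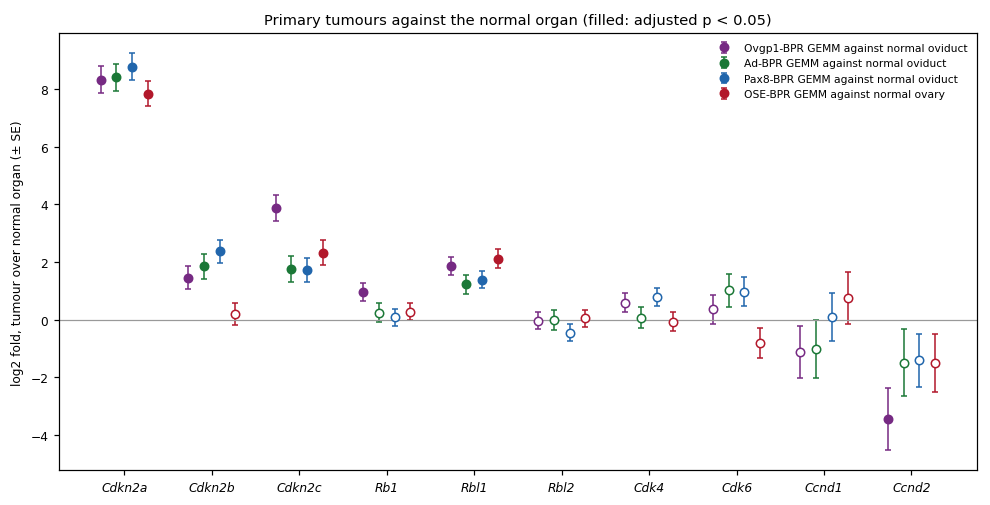
Log2 fold change of GEMM tumours over the normal organ (vertical axis) for each of the 10 genes; points are edgeR estimates, filled where the adjusted p is under 0.05, and bars are the SE. Cdkn2a lies at 7.85 to 8.79, Cdkn2c and Rbl1 lie above 0 in each model, and Ccnd2 lies below 0 with wide bars.

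Cdk4 RNA was abundant in every sample, and RNA of its relative Cdk6 was lower. Their means in tumours were 272 and 53.1 CPM. Per length Cdk4 made up 98.5% of the summed Cdk4 and Cdk6 TPM in tumours and 98.8% in normal organs. Cdk4 had 233, 353 and 308 CPM in Ovgp1-BPR, 184 and 233 CPM in Ad-BPR, 248, 702, 247 and 171 CPM in Pax8-BPR and 198, 257 and 289 CPM in OSE-BPR GEMM tumours. Oviduct had 215, 186 and 195 CPM and ovary had 252, 269 and 264 CPM. Tumours overlapped their organ in Ad-BPR, Pax8-BPR and OSE-BPR, and 1 Pax8-BPR tumour stood far above all others.

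In Pax8-BPR the log2 fold change of Cdk4 was 0.79 ± 0.32 (adjusted p = 0.059), and DESeq2 gave 0.81 (adjusted p = 0.037). Without replicate 1, 3 or 4 it passed at 0.90, 0.91 and 1.01, and without replicate 2, the high tumour, it was 0.21 (adjusted p = 0.47). In Ovgp1-BPR it was 0.59 ± 0.33 (adjusted p = 0.18), where limma on TPM gave 0.85 (adjusted p = 0.036). Cdk6 ranged from 8.55 to 100.1 CPM in tumours with a median of 54.5 CPM, and had 37.5, 26.1 and 34.2 CPM in oviduct and 53.5, 57.9 and 52.6 CPM in ovary. Its log2 folds were 0.78 ± 0.45 over the oviduct-origin models (adjusted p = 0.18) and -0.82 ± 0.53 in OSE-BPR (adjusted p = 0.27). The tumours' range spans both organs, and the difference by origin was 1.60 ± 0.69 (adjusted p = 0.13), or 2.37 (adjusted p = 0.026) without OSE-BPR GEMM replicate 1.

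The neighbours of Cdk4 on chromosome 10 were examined after the value of Pax8-BPR GEMM replicate 2 had been seen. In that tumour Cdk4 lay 1.5 log2 units above the median of the other 25 tumours. The 28 expressed neighbours within 500 kb had a median log2 ratio of 0.92, and 13 of them exceeded 1. Over 15881 genes the median was -0.01 and 13.6% exceeded 1. The next highest median of this Cdk4 window in any tumour was 0.37. Windows of 2 other members reached higher medians in a tumour. The Cdkn2a window stood at 1.25 over 5 neighbours in Ad-BPR allograft replicate 4. The Ccnd2 window stood at 0.98 over 7 neighbours in OSE-BPR allograft replicate 5. In the windows of the remaining members the highest median was 0.45 to 0.72. Avil stood at 5.48, Gli1 (a Hedgehog pathway transcription factor) at 2.57, Kif5a at 2.50 and Tsfm at 1.61, while Lrp1 stood at -0.26 and Ddit3 at -0.43. Another tumour stood higher for Avil (5.56), Gli1 (3.28) and Kif5a (3.94), and for Tsfm the highest of the others was 1.00. In 10 Mb bins of distance from the Cdk4 start, the 4 bins at the distal end (-30 to 10 Mb) had medians of 0.68, 0.59, 0.97 and 0.79. The other 10 bins lay between -0.32 and 0.11. The distal bins include Cdk4 and the 28 neighbours, and the spread of such bin medians over the other tumours was not computed. Copy number was not measured.

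**Figure D4:**
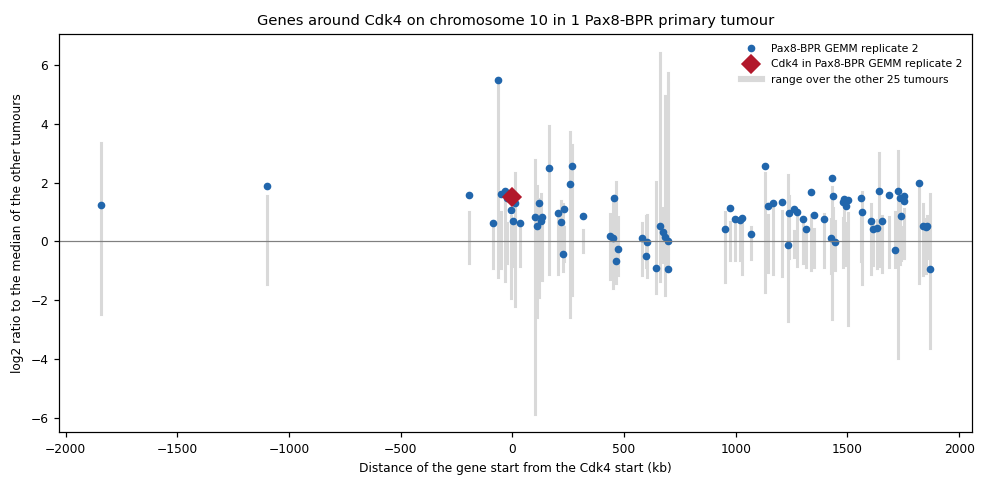
Log2 ratio of each expressed gene near Cdk4 in Pax8-BPR GEMM replicate 2 to the median of the other 25 tumours (vertical axis), against distance from the Cdk4 start in kb; grey bars are the range over the other 25 tumours. Cdk4 is the diamond at 1.5, and most neighbours within 500 kb lie above 0, with a median of 0.92.

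The D-type cyclins ranged widely from tumour to tumour. Ccnd1, the cyclin D1 gene, had 49.2, 92.7 and 38.1 CPM in Ovgp1-BPR, 47.7 and 80.4 CPM in Ad-BPR, 16.6, 385, 28.7 and 125 CPM in Pax8-BPR and 94.3, 13.8 and 3.54 CPM in OSE-BPR GEMM tumours. Oviduct had 105, 156 and 129 CPM and ovary had 21.4, 21.4 and 23.2 CPM. No Ccnd1 comparison with an organ passed the test: log2 folds were -0.68 ± 0.71 over the oviduct-origin models (adjusted p = 0.48) and 0.76 ± 0.90 in OSE-BPR (adjusted p = 0.58). The highest value again belonged to Pax8-BPR GEMM replicate 2, and the next tumour reached 144 CPM.

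Ccnd2, the cyclin D2 gene, is known for its role in the division of granulosa cells. Oviduct-origin GEMM tumours had 19.4, 10.6 and 8.78 CPM in Ovgp1-BPR, 39.0 and 61.1 CPM in Ad-BPR and 27.9, 108, 34.5 and 41.3 CPM in Pax8-BPR, against 133, 147 and 144 CPM in oviduct. OSE-BPR GEMM tumours had 240.1, 9.88 and 5.00 CPM, against 253, 232 and 244 CPM in ovary. No oviduct-origin GEMM tumour reached the oviduct, while in OSE-BPR 1 tumour lay within the ovary range and the other 2 far below it.

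The log2 fold change of Ccnd2 was -2.12 ± 0.76 over the oviduct-origin models (adjusted p = 0.031), a call lost in 6 of 12 leave-one-out fits with adjusted p up to 0.092: without Ovgp1-BPR GEMM replicate 2, Ad-BPR GEMM replicate 1 or 2, or any oviduct replicate. In Ovgp1-BPR it was -3.45 ± 1.09 (adjusted p = 0.018), and without Ovgp1-BPR GEMM replicate 2 or 3 the adjusted p was 0.069 or 0.073. In OSE-BPR it was -1.52 ± 1.01 (adjusted p = 0.29), -5.01 (adjusted p = 0.0021) without OSE-BPR GEMM replicate 1, and -2.79 (adjusted p = 0.017) by limma on TPM. Markers of several cell types of the normal organs were lower in the same comparisons. Granulosa, theca and luteal markers summed to 7.36 to 186 TPM in oviduct-origin GEMM tumours and 71.8 to 1090 TPM in oviduct, and to 358, 104 and 130 TPM in OSE-BPR GEMM tumours and 8670 to 9030 TPM in ovary. In both comparisons 8 of 9 markers were lower, Fshr, Lhcgr and Cyp19a1 were at 0 in the Ovgp1-BPR and Ad-BPR GEMM tumours, Cyp19a1 was at 0 in the Pax8-BPR GEMM tumours, and Lhcgr was at 0 in the OSE-BPR GEMM tumours. OSE-BPR GEMM replicate 1, whose 240.1 CPM of Ccnd2 lay within the ovary range, had 358 TPM of these markers, above the other OSE-BPR GEMM tumours and far below ovary. Among oviduct libraries the sums ranged widely while Ccnd2 stayed at 133, 147 and 144 CPM. Smooth muscle markers summed to 107 to 483 TPM in oviduct-origin GEMM tumours and 3440 to 4880 TPM in oviduct, with 5 of 5 lower, and to 51.0 to 118 TPM in OSE-BPR GEMM tumours and 528 to 710 TPM in ovary, with 3 of 5 lower and none at 0. Oocyte markers, 5 of 5 lower in both, summed to 0.49 to 5.32 TPM in oviduct-origin GEMM tumours and 4.19 to 85.9 TPM in oviduct, and to 0.68 to 6.67 TPM in OSE-BPR GEMM tumours and 244 to 267 TPM in ovary. Nlrp5 was at 0 in the Ovgp1-BPR and Ad-BPR GEMM tumours and Oosp1 in the OSE-BPR GEMM tumours. Ciliated cell markers were lower in the oviduct-origin comparison for 4 of 5, and in the OSE-BPR comparison 1 of 5 was higher and 0 lower. Endothelial markers were lower for 2 of 5 in the oviduct-origin and 4 of 5 in the OSE-BPR comparison. Fibroblast markers were lower for 2 of 6 in each. The part of all these markers in the Ccnd2 result was not tested.

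Per length Ccnd3, the remaining D-type cyclin gene, led the D-type cyclins in every group mean, at 66.3 to 83.9% of their summed TPM in tumour groups, 57.7% in oviduct and 60.2% in ovary. In Pax8-BPR GEMM replicate 2 Ccnd1 led instead, at 53.8% beside 36.2% for Ccnd3. Ccnd2 made up 4.22 to 18.5% in tumour groups, 17.0% in oviduct and 34.4% in ovary. Ccnd2 TPM in OSE-BPR allograft replicates 3 and 4 stood at 3.01 and 0.705 TPM per CPM, outside the 0.222 to 0.449 of the other 30 libraries, and both enter the OSE-BPR allograft share.

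Listed S phase target genes of E2F, which the pocket proteins restrain, mostly rose in the tumours. Over all genes, 14.8% rose and 20.9% fell in the oviduct-origin comparison, and 11.6% rose and 11.6% fell in the OSE-BPR comparison. Of 20 S phase E2F target genes, 20 rose and 0 fell in oviduct-origin GEMM tumours against oviduct (median log2 fold 2.89), and 18 rose and 0 fell in OSE-BPR GEMM tumours against ovary (median 1.60). Tk1, thymidine kinase, changed by 4.08 ± 0.46 in oviduct-origin and 2.80 ± 0.46 in OSE-BPR tumours, and Mcm6, a subunit of the replicative helicase, by 4.04 ± 0.34 in oviduct-origin and 2.23 ± 0.34 in OSE-BPR tumours. Of 10 E2F and DP factors 7 rose in oviduct-origin and 3 in OSE-BPR tumours, with 0 lower in either. E2f1, an activator, changed by 3.22 ± 0.24 (adjusted p = 3.3e-10) in oviduct-origin and 1.68 ± 0.24 (adjusted p = 3.7e-05) in OSE-BPR tumours. The repressors E2f7 and E2f8 changed by 3.90 and 4.08 in oviduct-origin and by 1.91 and 2.39 in OSE-BPR tumours. The dividing cell markers given for Rbl1 moved with these lists, and their part was not tested.

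Among the other inhibitors 2 of 4 rose in oviduct-origin and 3 of 4 in OSE-BPR tumours, with 0 lower. Cdkn2d (p19Ink4d) changed by 1.34 ± 0.27 in oviduct-origin and 1.06 ± 0.31 in OSE-BPR tumours, where Cdkn1c (p57) changed by 3.92 ± 1.22 and Cdkn1b (p27) by 1.28 ± 0.30. Of 7 genes of the MuvB core and its partners 5 rose and 1 fell in oviduct-origin tumours, and 3 rose in OSE-BPR tumours. Foxm1, a mitotic transcription factor of that list, changed by 3.41 ± 0.36 in oviduct-origin and 1.69 ± 0.36 in OSE-BPR tumours. Of 9 other G1 and S cyclins and kinases 5 rose in oviduct-origin tumours, led by Ccne2 (3.48 ± 0.42) and Ccna2 (3.47 ± 0.39). In OSE-BPR tumours 1 of them rose and 1 fell, near the 11.6% of all genes higher and 11.6% lower there. In the oviduct-origin comparison 14.8% of all genes were higher and 20.9% lower.

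Of 7 turnover genes 2 rose in oviduct-origin tumours, namely Skp2 and Cks1b, which target p27 for destruction, and 2 fell in OSE-BPR tumours, Fbxw7 (-0.99 ± 0.33) and Fbxo31 (-0.60 ± 0.22), both parts of ubiquitin ligases. Of 8 Polycomb and demethylase regulators of the INK4 locus 4 rose in oviduct-origin and 3 in OSE-BPR tumours. Ezh2, a histone methyltransferase that helps silence the locus, changed by 2.06 ± 0.32 in oviduct-origin and 1.05 ± 0.35 in OSE-BPR tumours. Over the 67 listed genes 46 rose and 2 fell in oviduct-origin tumours (median 1.37), and 31 rose and 3 fell in OSE-BPR tumours (median 0.82). Over all genes the medians were -0.04 and 0. The shares of all genes called were 14.8% higher and 20.9% lower in oviduct-origin tumours, and 11.6% and 11.6% in OSE-BPR tumours.

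Beside the Cdkn2a and Cdkn2b genes, Mtap, which encodes a methionine salvage enzyme, changed by 0.68 ± 0.21 (adjusted p = 0.013) and Dmrta1 by -2.67 ± 0.62 (adjusted p = 0.0021) in oviduct-origin GEMM tumours. Dmrta1 was low throughout, at 1.51 CPM in those tumours and 3.96 CPM in oviduct. In OSE-BPR tumours neither passed the test, with 0.03 for Mtap and 1.45 for Dmrta1.

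The normal organs were compared as the baseline of the members, and many genes differed between them. In oviduct against ovary 1 of the 10 genes was higher and 5 were lower, beside 28.5% of all genes higher and 24.5% lower. In a fit of all 32 libraries 1 of the 10 genes was called, and fewer of all genes were called as well. Ccnd1 averaged 130 ± 25.8 CPM in oviduct and 22.0 ± 1.02 CPM in ovary (SD, n = 3 each), a log2 difference of 2.65 ± 0.14 (6.25-fold, adjusted p = 1.7e-05). Ccnd2 differed by -0.70 ± 0.07 (adjusted p = 3e-04), Cdkn2b by -1.09 ± 0.24 (adjusted p = 0.0078) and Cdk6 by -0.66 ± 0.14 (adjusted p = 0.0071). Cdkn2c at -0.33 ± 0.11 (adjusted p = 0.036) and Cdk4 at -0.31 ± 0.09 (adjusted p = 0.02) lost their calls when the animal was kept as a replicate block, with adjusted p of 0.064 and 0.056, and in 5 of 6 (Cdkn2c) and 3 of 6 (Cdk4) leave-one-out fits. Rbl1 passed without ovary replicate 3 (0.45, adjusted p = 0.03). Of the 67 listed genes 3 were higher and 43 lower in oviduct, and summed markers of dividing cells were 13.4 to 51.7 TPM there and 132 to 201 TPM in ovary.

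Between tumours of different origin few members separated. In oviduct-origin GEMM tumours against OSE-BPR GEMM tumours 0 of the 10 genes were called by edgeR, beside 11.1% of all genes higher and 14.9% lower, and DESeq2 and limma on TPM also called 0. None of the 10 had an unadjusted p under 0.05, against 7804 of 20000 genes. Without OSE-BPR GEMM replicate 1, Cdk6 (1.60, adjusted p = 0.047) and Ccnd1 (3.22, adjusted p = 0.028) passed. In allografts 1 gene was higher and 0 lower (17.4% and 20.4%): Cdkn2b averaged 39.5 ± 16.5 CPM in oviduct-origin allografts (SD, n = 9) and 18.9 ± 7.46 CPM in OSE-BPR allografts (SD, n = 5), a log2 difference of 0.94 ± 0.29 (adjusted p = 0.014), with overlap. Cdk6 passed there without OSE-BPR allograft replicate 3 (1.20, adjusted p = 0.038). Cell type markers moved with this allograft comparison. Summed fibroblast markers were 961 to 7230 TPM in oviduct-origin and 215 to 626 TPM in OSE-BPR allografts. Leukocyte markers summed to 72.7 to 461 TPM and 36.2 to 70.4 TPM. Epithelial sums overlapped, and granulosa, theca and luteal sums went the other way, at 11.1 to 88.6 TPM and 64.4 to 558 TPM. Their part in the Cdkn2b result was not tested.

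Tested over all 4 models at once with no direction, 1 of the 10 genes differed in GEMM tumours, beside 37.2% of all genes, and 2 differed in allografts, beside 46.4%. Cdkn2c passed in both (adjusted p = 0.0018 and 0.0077), and Cdkn2b passed in allografts (adjusted p = 0.011). In GEMM tumours Ccnd1 passed without OSE-BPR GEMM replicate 1 (adjusted p = 0.039) and Cdkn2b without Pax8-BPR GEMM replicate 2 (adjusted p = 0.047), and in allografts Rbl2 passed without OSE-BPR allograft replicate 2 (adjusted p = 0.047). In allografts against GEMM tumours 0 of the 10 genes passed, beside 0% of 20000 genes higher and 0% lower in edgeR, where 1210 genes had an unadjusted p under 0.05. DESeq2 called 34 genes there, with none of the 10 among them, and limma called 0. The Cdkn2a difference was -0.30 ± 0.16 (adjusted p = 0.83).

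Across the 26 tumours, which share models, strains and a single normalisation, the genes most like each member by Spearman correlation of log2 CPM were listed as a description. Cdkn2b was most like Ankrd1 (0.929), Nes (0.919) and Pdlim7 (0.908), and Cdkn2c was most like Plscr2 (0.909), Tshz1 (0.873) and Rhbdl1 (0.864). Rbl1 was most like BC052040 (0.889), Cit (0.877) and Nemp2 (0.874), and Ccnd2 was most like Pramef12 (0.878), Nid1 (0.841) and Kcnma1 (0.828). Cdkn2a had lower maxima, with Sync at 0.723, Pex16 at 0.679 and AC131323.1 at 0.668. For Cdk4 the 3 were Nr2c1 (0.859), Atp5b (0.858) and Fbl (0.849), for Rb1 Smc2 (0.835), Myo9a (0.795) and Prps2 (0.794), and for Rbl2 Phkb (0.742), Vps13d (0.708) and Cpe (0.708). For Cdk6 they were Trim65 (0.8), Eif2ak3 (0.787) and Nfkbie (0.775), and for Ccnd1 Elf5 (0.785), Ercc4 (0.780) and Batf2 (0.770). Among the members the strongest pair was Cdkn2c with Ccnd2, at -0.735 over the same 26 tumours.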

How the data were processed

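Total RNA of 32 mouse samples in 10 groups was sequenced. The authors deposited gene-level expected counts and TPM for 55450 genes. Per the submitters' processing notes, Picard, bcl2fastq, cutadapt 1.18, STAR 2.7.0f, RSEM 1.3.1 and the builds mm10 and GRCm38 were used; strandedness and library selection are not stated there or in the labels. Every value column was mapped to a sample (0 unmapped).

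The deposited expected counts were rounded to whole numbers and tested with edgeR 4.0.16 in R 4.3.3 (quasi-likelihood F test, filterByExpr with a minimum count of 10, TMM scaling, Benjamini-Hochberg adjustment over all genes). Tumour against organ comparisons used all 32 libraries (20887 genes), tumour comparisons the 26 tumours (20000 genes) and the organ comparison the 6 normal libraries (17334 genes). CPM come from the fit of 32 libraries. Tumour models were averaged with equal weight on the log scale, so a fold change need not equal the ratio of mean CPM. TPM, as deposited by the authors, served for family shares, marker sums and limma 3.58.1 on log2(TPM + 1) or log2(TPM + 0.1). DESeq2 1.42.0, RLE scaling, no filter and leaving out each replicate were alternatives. Leaving out 2 oviduct libraries, or 2 Ovgp1-BPR tumours, was chosen after earlier results of these data had been seen.

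The members and pathway lists were chosen with earlier results of these data known. Of each list, up to 3 called genes per direction with the largest log2 fold change and no overlap between groups are named in the comparisons of OSE-BPR GEMM with ovary and of oviduct-origin GEMM with oviduct. Likeness is Spearman's correlation of log2 CPM, leaving out genes with Gm or Rik symbols, immune receptor segments and the members themselves. Normal ovary and oviduct are paired because they came from the same 3 animals; the correlations of their deviations were -0.0844, -0.0435 and 0.0598. Over 39 pairs of libraries within groups, the lowest chi-square per degree of freedom was 10.9, so none was counted as a duplicate. The scripts were checked on simulated counts.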

Additional observations from a re-analysis of the deposited data

Results flagged for a closer look

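Of 30 gene and group combinations with 4 or 5 libraries, 2 held a library far from the rest of its group, and chance gives about 1 in 20. In Pax8-BPR GEMM tumours replicate 2 had a Cdk4 level of 702 CPM, with the nearest library at 248 CPM, a gap of 0.855 of the group's range. The same tumour had a Ccnd2 level of 108 CPM, with the nearest library at 41.3 CPM, a gap of 0.832 of the range. For Cdkn2b the tumour effect differed between oviduct-origin and OSE-BPR GEMM tumours by 1.70 on the log2 scale, tested as an interaction in edgeR (adjusted p = 0.027); strain and origin cannot be told apart.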

How the results depend on the processing

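Of 2070 fold changes recomputed under alternatives, 93 changed sign after rounding, 40 of them under limma on TPM, and 0 of the 93 had been called. Before rounding 98 changed sign. The 93 touched 33 folds of the members. The cause was not tested. Among the 93 the largest original fold was 1.44 in size, and the largest under an alternative was 2.93.

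Counts of genes called moved over leave-one-out fits as follows: 3114 to 4934 for OSE-BPR GEMM against ovary (4842 with all libraries), 1629 to 3709 for Ad-BPR GEMM against oviduct (5033), 1829 to 3313 for the difference by origin (2885), 2695 to 5663 for oviduct-origin against OSE-BPR GEMM (5202), 1965 to 4934 for Ovgp1-BPR against Ad-BPR and Pax8-BPR GEMM (4542) and 2063 to 5315 for the same in allografts (4456). Counts of members called moved over leave-one-out fits to 2 to 4 for Ad-BPR (4), 0 to 2 for the difference (1), 0 to 2 for oviduct-origin against OSE-BPR GEMM (0), 1 to 2 for the same in allografts (1), 1 to 2 for Ovgp1-BPR against Ad-BPR and Pax8-BPR GEMM (2), 0 to 1 for the same in allografts (1) and 1 to 2 for the spread over GEMM models (1). Both lists hold counts that moved by more than 1.5-fold, or to or from 0, in some fit. Smaller moves of member counts were 4 to 6 for Ovgp1-BPR against oviduct and for oviduct against ovary, and 4 to 5 for Pax8-BPR and the oviduct-origin models. They were 3 to 4 for OSE-BPR against ovary and 2 to 3 for the spread over allografts. Fewer libraries were fitted in these leave-one-out fits.

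Leaving out oviduct replicates 1 and 3 gave 1485 genes and 1 member for Ad-BPR, 2301 and 2 for Pax8-BPR, 2271 and 3 for Ovgp1-BPR, 2597 and 3 for the oviduct-origin models, and 1277 and 0 for the difference by origin. The members lost were Cdkn2b (1.66, adjusted p = 0.13), Cdkn2c (1.81, adjusted p = 0.12) and Rbl1 (1.14, adjusted p = 0.17) in Ad-BPR, Cdkn2c (1.81, adjusted p = 0.09) and Rbl1 (1.34, adjusted p = 0.073) in Pax8-BPR, Cdkn2b (1.25, adjusted p = 0.2), Rb1 (0.84, adjusted p = 0.27) and Ccnd2 (-3.55, adjusted p = 0.09) in Ovgp1-BPR, and Cdkn2b (1.71, adjusted p = 0.07) and Ccnd2 (-2.20, adjusted p = 0.23) over the oviduct-origin models. Organs fitted with all 32 libraries gave 2605 genes and 1 member, against 9191 and 6 in the fit of the 6. The replicate block gave 7971 genes and 4 members, and beside Cdkn2c and Cdk4 it changed no call among the 10. For Ovgp1-BPR GEMM against Ad-BPR and Pax8-BPR, RLE scaling and no filter each called 1 member; limma called 2 in the allograft comparison and 2 for the spread over GEMM models. DESeq2 called 34 genes between allografts and GEMM, where edgeR called 0.

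Folds that changed sign are given with all libraries first. In OSE-BPR against ovary Cdkn2b was 0.19 (leave-one-out -0.03 to 0.46), Rbl2 0.04 (-0.13 to 0.20), Cdk4 -0.08 (-0.20 to 0.07, limma 0.14) and Ccnd1 0.76 (-1.32 to 1.3, limma -0.04 and -0.17). In Ad-BPR Rb1 was 0.24 (-0.01 to 0.47), Rbl2 -0.01 (-0.40 to 0.32, limma 0.06 and 0.07, no filter 0.01) and Cdk4 0.07 (-0.16 to 0.29). In Pax8-BPR Rb1 was 0.08 (-0.09 to 0.20) and Ccnd1 0.10 (-1.15 to 0.46, limma -0.84 and -0.90, without the 2 oviduct libraries -0.17). In Ovgp1-BPR Rbl2 was -0.04 (-0.54 to 0.28, limma 0.14). In the difference by origin Cdkn2c was 0.14 (-0.01 to 0.25, limma -0.25 and -0.26), Rb1 0.14 (-0.02 to 0.27, limma -0.08 and -0.09), Ccnd1 -1.44 (-1.98 to 0.68) and Ccnd2 -0.60 (-1.16 to 2.93, limma 0.87 and 1.05).

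Between oviduct and ovary Rb1 was 0.08 (-0.03 to 0.20, limma -0.06, all 32 libraries 0) and Rbl2 -0.07 (-0.16 to 0.03). In oviduct-origin against OSE-BPR GEMM Cdkn2a was 0.03 (-0.09 to 0.23, limma -0.08), Rb1 0.14 (-0.04 to 0.25, limma -0.14 and -0.15), Cdk4 0.16 (-0.05 to 0.28, limma -0.03) and Ccnd2 -1.39 (-1.95 to 2.12, limma 0.11 and 0.27). In the allografts Cdkn2a was 0.16 (limma -0.01), Cdkn2c 0.02 (-0.14 to 0.17, limma -0.04), Rb1 -0.18 (-0.32 to 0.03), Cdk4 0.01 (-0.06 to 0.15, limma -0.10) and Ccnd2 -0.51 (-0.80 to 0.25). In Ovgp1-BPR GEMM against Ad-BPR and Pax8-BPR, Rbl2 was 0.19 (-0.31 to 0.47, without Ovgp1-BPR GEMM replicate 1 and allograft replicate 3 -0.33) and Ccnd1 -0.65 (limma 0.02 and 0.04). In those allografts Cdkn2a was -0.04 (-0.38 to 0.25, limma 0.17) and Cdk4 0.09 (-0.15 to 0.29). In allografts against GEMM Rb1 was -0.07 (-0.21 to 0.06), Rbl2 -0.09 (-0.16 to 0.04, without that pair 0.02), Cdk4 -0.02 (-0.07 to 0.14, limma 0.03, without that pair 0.01) and Ccnd2 -0.26 (-0.45 to 0.62, limma 0.15 and 0.20). Each group holds 2 to 5 libraries, and Cdkn2a in the normal organs rests on 7 to 18 counts.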
